A study of Rattus norvegicus with 12 samples.

Results

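The genes described here encode the enzymes of de novo purine synthesis and of the branch from inosine monophosphate (IMP) to guanosine monophosphate (GMP): Ppat, Gart, Pfas, Paics, Adsl, Atic, Impdh1, Impdh2 and Gmps. Members were found through the RefSeq accession of each array probe, which gave 10 probes for 8 of the 9 genes, among 16667 genes with a symbol. No probe carried a matching accession for Pfas, so that gene was not analysed here. Each single-colour Agilent array read the liver RNA of 1 adult male Wistar rat. The 6 low protein rats ate a diet with 5% casein and the 6 control rats a diet of equal energy content with 14% casein, both for 4 weeks.

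Cells build the purine ring stepwise on phosphoribosyl pyrophosphate (PRPP), an activated ribose, and draw its atoms from glutamine, glycine, aspartate, carbon dioxide and formyl groups carried by folate. The route ends in IMP, from which separate branches lead to adenosine monophosphate (AMP) and to GMP. Liver is a main site of this synthesis and supplies purines to other tissues. Several steps use amino acids directly as substrates, and the comparison asks whether the transcripts of these enzymes differ with protein intake.

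Ppat and Paics, which encode the first enzyme of the pathway and a later one, are neighbours that start head to head. In RefSeq's promoter table for the GRCr8 build, the Ppat start lies at base 31570010 of chromosome 14 on the plus strand and the Paics start at base 31570035 on the minus strand. The 2 transcripts thus overlap on opposite strands over their first 26 bases, chr14:31570010-31570035, and run away from each other beyond them. The bases are shown on the plus strand, that of Ppat, and Paics begins with their reverse complement:
Ppat and Paics shared start: cggctggctgctcagggcaggaaccg

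Windows of 300 bases, from 250 bases before to 50 bases after each start, were searched on both strands for 4 short motifs. The table held 10 such windows for the 9 genes, with a pair for Impdh1. The E-box CACGTG, the site that MYC and related factors bind, occurred in 1 of the 10 windows, that of Atic, and in 6.42% of all 33469 windows. Atic held it at 2 places, and 0.520% of all windows held it at 2 or more. One of the places lies before the start and is set in capitals in the 250 bases that precede the Atic start (chr9:80614061-80614310, plus strand, GRCr8):
Atic upstream: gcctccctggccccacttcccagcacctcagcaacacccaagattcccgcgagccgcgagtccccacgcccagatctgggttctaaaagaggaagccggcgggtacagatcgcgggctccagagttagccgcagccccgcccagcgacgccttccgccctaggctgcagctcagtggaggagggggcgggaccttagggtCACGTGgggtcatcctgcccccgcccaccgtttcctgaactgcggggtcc
The GC box CCGCCC was present in 8 of the 10 windows, against 33.1% of all windows. TGATGNAA, the core of the amino acid response element that ATF4 binds, was in 0 of the 10 windows and in 3.98% of all. The palindromic consensus of NRF1 was in 0 of the 10 and in 0.852% of all, and matches of different motifs overlapped at 0 places in the 10 windows. These letter matches describe the windows and do not show binding.

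Values are log2 signals relative to the 75th percentile of the same array, so 0 means a signal equal to that percentile and a difference of 1 means a doubling. The arrays lay on 2 slides: slide 1 held 4 low protein and 4 control arrays, and slide 2 held 2 per diet. Place on the slide went with diet. On slide 1 every control array was in row 1 and every low protein array in row 2. On slide 2 the controls took columns 1 and 2, while low protein rats 5 and 6 took columns 3 and 4. Position thus cannot be told apart from diet on either slide, and its effect was not tested. The 75th percentile was 942 to 1317 intensity units on low protein arrays and 944 to 1305 on control arrays. Precision is set by the number of arrays: over the 21874 genes tested with limma, log2 changes had a median SE of 0.13. As a check of the labelled tissue, all 6 hepatocyte markers were well above background on all 12 arrays.

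All 8 purine synthesis genes measured had a higher mean signal in low protein livers, and 4 of them, Ppat, Paics, Atic and Impdh2, rose at a limma adjusted p under 0.05. Of all genes tested, 6.53% passed in either direction and 3.48% rose, while 44.9% had a log2 change above 0. None of the 8 fell, against 3.05% of all genes. An unadjusted p under 0.05 was reached by 7 of the 8, against 21.6% of all genes. The median log2 change was 0.39 over the 8 genes and -0.03 over all genes, and the changes of the 8 ran between 0.10 and 0.61. Among all genes called, 53.3% were higher in low protein livers, a share that was 76.2% without scaling between arrays and 81.1% in the deposited value table. In bulk liver RNA, a different number of cells of a type and a different amount of RNA per cell cannot be told apart.

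**Figure D1:**
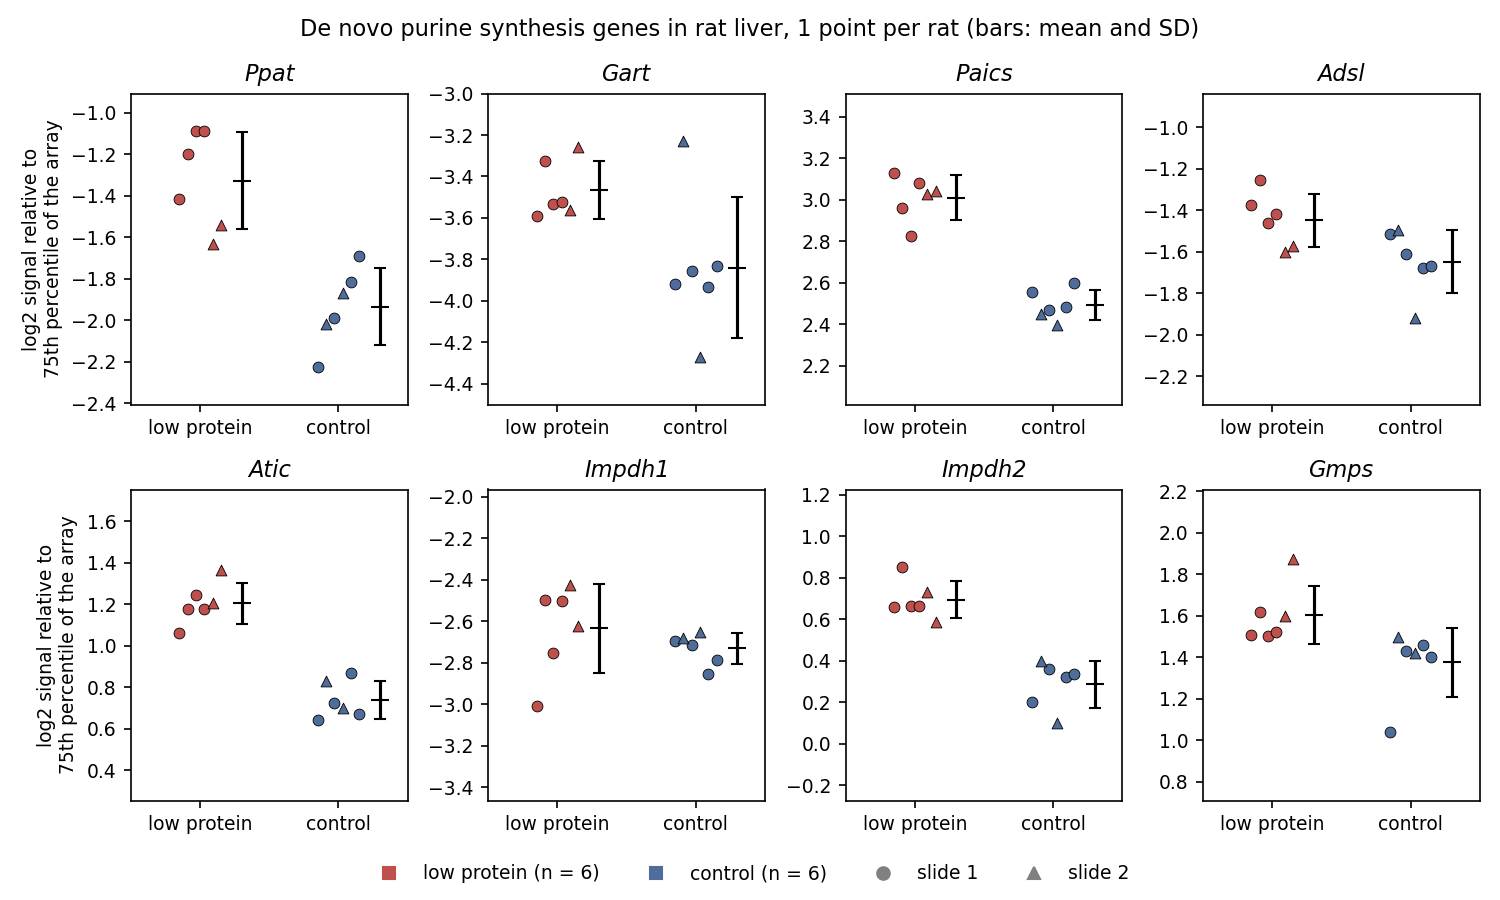
Log2 signal of 8 purine synthesis genes relative to the 75th percentile of the array, 1 point per rat, low protein (red) left of control (blue), circles for slide 1 and triangles for slide 2, bars for mean and SD (n = 6 each). All panels span the same height in log2 units. The diets are apart in Ppat, Paics, Atic, Impdh2 and Gmps and overlap in Gart, Adsl and Impdh1.

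Ppat encodes amidophosphoribosyltransferase, which takes the amide nitrogen of glutamine to start the purine ring on PRPP and is the committed and feedback-regulated step. Its log2 signal had a lowest value of -1.63, a median of -1.31 and a highest value of -1.09 in the 6 low protein rats, against -2.23, -1.93 and -1.69 in the 6 control rats. Every low protein rat was above every control rat. The mean was -1.33 ± 0.23 in low protein and -1.93 ± 0.19 in control livers (SD, n = 6 each), and Ppat rose 1.52-fold (log2 change 0.61 ± 0.12, SE, limma adjusted p = 0.0111). This was the largest change of the 8 genes here, but not with normexp background correction and 75th percentile scaling (Ppat 0.49, Paics 0.53) or on slide 2, where Paics, Atic and Impdh2 had larger changes. Ppat was read by 1 probe with 1 spot per array, so its value has no repeat within an array. The low protein rats on slide 2, rats 5 and 6, had the lowest Ppat values of their diet at -1.63 and -1.54. On slides 1 and 2 alone the log2 change was 0.73 and 0.36, and the test of this difference between slides gave an unadjusted p of 0.115 in limma (adjusted p = 1.00).

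Gart encodes a protein with 3 activities of the pathway, which add glycine, transfer a formyl group from folate and close the first ring. Its values were -3.59, -3.53 and -3.26 (lowest, median and highest) in low protein rats and -4.27, -3.89 and -3.23 in control rats. The diets overlapped through 1 animal: control rat 2, at -3.23, was higher than every low protein rat, and the other 5 control rats were lower than every low protein rat. The log2 change of 0.37 ± 0.14 did not pass (limma adjusted p = 0.144), with a 95% interval of 0.07 to 0.68. Without control rat 2 it was 0.50 and passed (adjusted p = 0.0185), and over all alternatives the adjusted p of Gart was 0.0185 to 0.779. The Gart probe was dim, with processed signals of 62.5 to 138 intensity units, and had 1 spot per array. After normexp background correction with an added offset its change was 0.12.

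Paics, whose protein carries out the carboxylation of the ring and the following addition of aspartate, had the smallest p of the 8 genes and was at rank 103 by p of the 21874 genes. The brightest of its 3 probes gave 2.82, 3.04 and 3.13 (lowest, median and highest) in low protein rats, against 2.40, 2.48 and 2.60 in control rats. No value of one diet reached those of the other. Means were 3.01 ± 0.11 in low protein and 2.49 ± 0.07 in control livers (SD, n = 6 each). Paics rose 1.43-fold (log2 change 0.52 ± 0.07, limma adjusted p = 0.00116). Its other 2 probes, tested over all probes, gave 0.45 ± 0.07 (adjusted p = 0.00341) and 0.53 ± 0.07 (adjusted p = 0.000921), and in each of them the diets did not overlap either. Of the 3 probes, 2 were printed at 10 spots per array.

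Adsl encodes adenylosuccinate lyase, which acts both on the way to IMP and in the last step to AMP. Its values were -1.60, -1.44 and -1.26 in low protein rats and -1.92, -1.64 and -1.49 in control rats (lowest, median and highest). Of the 6 low protein rats, 4 were above all control rats, and rats 5 and 6 on slide 2 were within the control range. The log2 change of 0.20 ± 0.09 did not pass (limma adjusted p = 0.212), with a 95% interval of 0.01 to 0.39.

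Atic encodes the enzyme that adds the second formyl group from folate and closes the purine ring to give IMP. In low protein rats its lowest, median and highest values were 1.06, 1.19 and 1.36, against 0.64, 0.71 and 0.87 in control rats. The gap between the diets was wider than the SD of either. With means of 1.21 ± 0.10 in low protein and 0.74 ± 0.09 in control livers (SD, n = 6 each), Atic rose 1.38-fold (log2 change 0.47 ± 0.07, limma adjusted p = 0.00255). On slides 1 and 2 alone the change was 0.44 and 0.52.

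The first step from IMP toward GMP is the oxidation by IMP dehydrogenase, which has a pair of isozymes. Impdh2, described as the inducible form of growing cells, had values of 0.59, 0.67 and 0.85 (lowest, median and highest) in low protein rats, against 0.10, 0.33 and 0.40 in control rats. It rose 1.33-fold without overlap of the diets (log2 change 0.41 ± 0.07, limma adjusted p = 0.00672), with 0.41 on each slide alone. Impdh1, described as the constitutive form, had values of -3.01, -2.56 and -2.42 in low protein rats and -2.85, -2.70 and -2.65 in control rats. Its low protein values enclosed those of the control rats: 4 low protein rats were above all control rats and low protein rat 1 was below them. The log2 change of 0.10 ± 0.10 did not pass (limma adjusted p = 0.632, 95% interval -0.12 to 0.31). With single rats left out the Impdh1 change was 0.05 to 0.17, the highest without low protein rat 1 (adjusted p = 0.241) and the lowest without low protein rat 5, and without scaling it was 0.23. Its SD between rats was 0.22 on low protein and 0.07 on control arrays.

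Gmps encodes GMP synthetase, which uses glutamine to finish GMP. Its values were 1.50, 1.56 and 1.87 in low protein rats, against 1.04, 1.43 and 1.50 in control rats (lowest, median and highest). All 6 low protein rats were above all control rats, but by a margin that rounding hides: the lowest low protein rat was at 1.500 and the highest control rat at 1.498. The log2 change of 0.23 ± 0.09 did not pass (limma adjusted p = 0.178, 95% interval 0.02 to 0.43). In 5 of the 8 genes the diets were thus fully apart, each time with low protein higher. Over all genes tested this was so for 4.98%, made up of 3.00% higher and 1.98% lower in low protein livers.

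**Figure D2:**
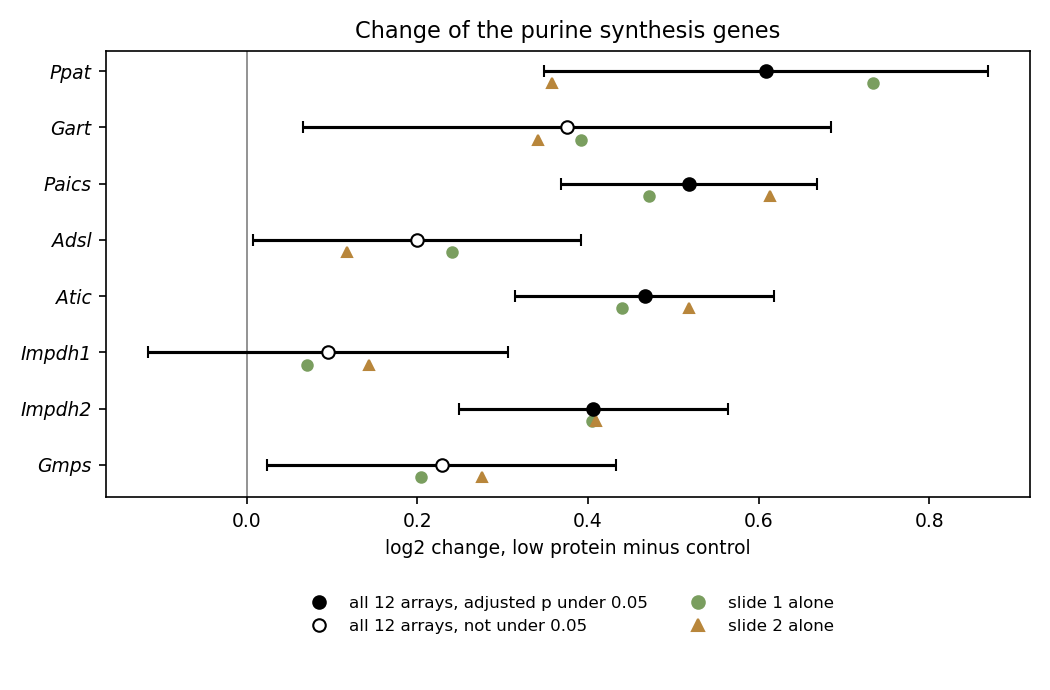
Log2 change, low protein minus control, of 8 purine synthesis genes with 95% intervals from limma (filled circles, adjusted p under 0.05), and below each the change within slide 1 (circles) and slide 2 (triangles). Ppat, Paics, Atic and Impdh2 are filled, at 0.61, 0.52, 0.47 and 0.41, and on both slides the values of all 8 genes are above 0.

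On each slide alone, all 8 changes were above 0, between 0.07 and 0.73 on slide 1 and between 0.12 and 0.61 on slide 2. None of the 8 passed within a slide, with 4 arrays per diet on slide 1 and 2 on slide 2. The change of Paics had the lowest adjusted p on slide 2 (0.317) and Ppat that on slide 1 (0.0594). With slide as a block in the fit of all 12 arrays, Ppat, Paics, Atic and Impdh2 passed again (limma adjusted p 0.00204 to 0.00931). Neither that block nor the fits within a slide separate diet from array position. A term for unequal change on the slides passed for 0 of all genes tested and had an unadjusted p under 0.05 in 0 of the 8.

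The genes with 10 spots per array allow the error within an array to be set beside the spread between rats. For Atic, the SD of log2 signal between the spots of 1 array had a median of 0.06, and the SD between rats was 0.10 in low protein and 0.09 in control livers. For Impdh2 these were 0.07, 0.09 and 0.11, and for Paics 0.10, 0.11 and 0.07. Impdh1 was unlike them in low protein rats, with 0.06 between spots and 0.22 between rats. Spread between arrays includes that between rats and that of preparing and labelling the RNA, which cannot be told apart.

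No rat was high in all members. Low protein rats 2 and 4 were above their diet's median in 6 of the 8 genes and low protein rats 1 and 3 in 2. Among control rats, rat 2 was above the median in 6 genes and was the highest of its diet in 4, Gart, Adsl, Impdh2 and Gmps. Control rat 4 was the lowest of its diet in 4 genes, Gart, Paics, Adsl and Impdh2. With opposite ranks in different genes, low protein rat 1 had the highest Paics value of its diet and the lowest values of Gart, Atic and Impdh1.

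Whether neighbouring or duplicate genes changed by different amounts was tested on the difference of both log2 signals on each array, which does not depend on the scaling. Impdh2 minus Impdh1 averaged 3.33 ± 0.20 in low protein and 3.02 ± 0.16 in control rats (SD, n = 6 each). Impdh2 changed more than Impdh1 by 0.31 on the log2 scale, with a 95% interval of 0.09 to 0.55 (two-sided exact permutation test, p = 0.00649, adjusted p = 0.0130 over the 2 pairs compared). Whether each probe reads only its own isozyme could not be checked. The Impdh1 probe read 117 to 230 intensity units and the Impdh2 probe 1088 to 2056, and the pairs were not tested after normexp background correction. Paics minus Ppat averaged 4.34 ± 0.30 in low protein and 4.43 ± 0.19 in control rats. The changes of this head-to-head pair differed by -0.09, Paics less than Ppat, with an interval of -0.42 to 0.25 (two-sided exact permutation test, p = 0.55, adjusted p = 0.55). Within slide 2 the Paics minus Ppat difference had the opposite sign (0.26). Impdh2 changed more than Impdh1 by 0.33 within slide 1 and by 0.27 within slide 2, where neither exact test passed (adjusted p 0.114 and 0.333). The smallest p that the 12 arrays allow is 0.00216.

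**Figure D3:**
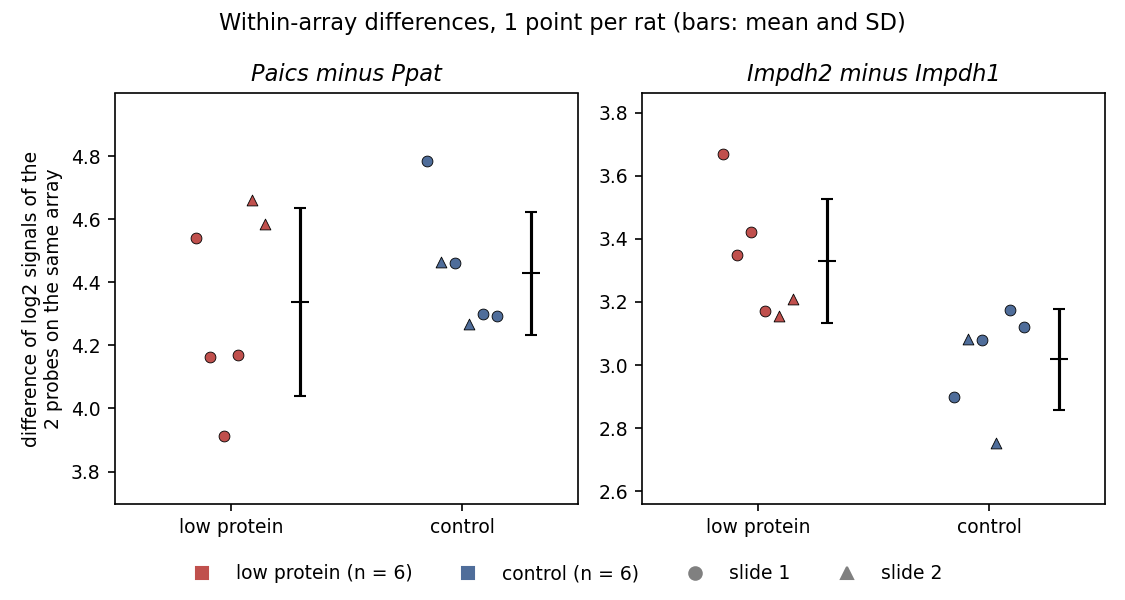
Difference of the log2 signals of 2 probes on the same array, 1 point per rat, low protein (red) left of control (blue), circles for slide 1 and triangles for slide 2, bars for mean and SD (n = 6 each). The diets overlap for Paics minus Ppat. For Impdh2 minus Impdh1 the low protein mean is 3.33 and the control mean 3.02.

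The 5 named genes whose values followed those of Ppat most closely over the 12 arrays were found by Pearson's correlation among 11196 genes with a symbol. They were Nup153, a nuclear pore protein (r = 0.926), the mitochondrial formate enzyme Mthfd1l, Spata2 (0.911), the poly(A) binding protein Pabpc4 (0.906) and the seryl-tRNA synthetase Sars1 (0.903). Mthfd1l was not well above background on any of the 6 control arrays, so its control values are readings near the floor and its coefficient is not given. The coefficients include the diet difference that Ppat shows and are given as a ranking, with no test. Of the other 4, Spata2, Pabpc4 and Sars1 rose by limma and Nup153 did not pass (0.26 ± 0.09, adjusted p = 0.102). All were picked for following Ppat, in which the diets do not overlap. Their calls were thus largely set by the choice and are not a separate result. The member nearest to Ppat was Impdh2 at rank 79 (r = 0.806), followed by Atic at rank 117 and Paics at rank 181. Impdh1 had the lowest coefficient of the members, 0.180.

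Genes around the pathway came from lists of PRPP synthesis, the AMP branch, salvage, breakdown, cofactor supply and regulation. For comparison with the counts called in each list, 3.48% of all genes tested rose and 3.05% fell. In PRPP synthesis 1 of 4 measured genes, Prps1, which makes PRPP, rose (log2 change 0.27 ± 0.06, limma adjusted p = 0.0282). Its values were 0.98 to 1.18 in low protein and 0.67 to 0.91 in control rats, without overlap. For Prps1 the call ended without control rats 1, 3 or 5 or low protein rats 1, 5 or 6 (adjusted p 0.0512 to 0.0685), with rat number as a block (adjusted p = 0.0848) and without scaling (adjusted p = 0.103). Prps2, Prpsap1 and Prpsap2 did not pass, at 0.11, 0.09 and -0.20. In the AMP branch Adss2, adenylosuccinate synthase, was at -0.03 ± 0.13 (limma adjusted p = 0.926, 95% interval -0.31 to 0.25). Its sign turned under other scalings, with 0.10 without scaling and 0.12 in the deposited value table.

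Salvage returns free bases and nucleosides to nucleotides, and breakdown turns them into uric acid and allantoin. None of 4 salvage genes passed limma's test, and 1 had an unadjusted p under 0.05: Hprt1, which returns hypoxanthine and guanine to nucleotides, was at 0.34 ± 0.10 (adjusted p = 0.0695), and it passed without low protein rat 3 (adjusted p = 0.0285), in the deposited value table, with quantile normalization, with both normexp settings and with trend and robust eBayes (adjusted p 0.0250 to 0.0404). Adk, adenosine kinase, was at -0.15 ± 0.14. In purine breakdown 1 of 7 genes fell, against 3.05% of all genes tested. This was Uox, urate oxidase, which turns uric acid into allantoin in rats (-0.41 ± 0.11, limma adjusted p = 0.0377). Its values were 2.91 to 3.38 in low protein and 3.32 to 3.77 in control rats, so that the diets overlapped. The call for Uox ended without control rats 2, 3, 5 or 6 or low protein rats 1, 4, 5 or 6 (adjusted p 0.0669 to 0.0863), without scaling (0.273) and in the deposited value table (0.231). Xdh, xanthine dehydrogenase, was at -0.24 ± 0.13 (adjusted p = 0.302). None of 8 genes of nucleotide interconversion passed limma's test and 2 had an unadjusted p under 0.05, Ak4 (-0.25 ± 0.09) and Ampd1 (-0.64 ± 0.26). Over all genes tested, for comparison with salvage and interconversion alike, 21.6% had such a p. The Ampd1 probe was dim, at 10.5 to 42.5 intensity units, and was well above background on 5 of the 6 low protein arrays. With either normexp setting 1 gene of the interconversion list was called lower.

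Enzymes that supply formyl groups and glycine rose in 3 of the 7 genes that were well above background on all 12 arrays, and none fell, with 3 at an unadjusted p under 0.05. Over all genes tested 3.48% rose, 3.05% fell and 21.6% had such a p. With normexp and quantile normalization 1 gene of the list was called lower. Mthfd2, a mitochondrial folate enzyme, rose 14.0-fold (log2 change 3.81 ± 0.32, limma adjusted p = 5.54e-05), with values of 0.25 to 1.01 in low protein and -3.95 to -1.58 in control rats. Mthfd1l, which releases formate from mitochondria, was not well above background on any control array and entered the test only through the low protein arrays, so it had to differ and is not counted above. For each control array the higher of the probe's own signal and the dimmest detected signal was taken. Against the mean of these, the low protein mean of Mthfd1l was 3.84-fold higher. That value depends on the background correction and is not a lower bound. After normexp background correction with 75th percentile scaling the log2 change of Mthfd1l was 0.26 and did not pass (limma adjusted p = 0.129). Mthfd1, the cytosolic enzyme that makes the formyl folate used by Gart and Atic, was at 0.38 ± 0.10 (limma adjusted p = 0.0448), and its call ended without any single rat other than control rat 1 or low protein rat 3 (adjusted p 0.0624 to 0.0941) and with rat number as a block (adjusted p = 0.0552). Shmt2, which makes glycine from serine, was at 0.49 ± 0.12 (limma adjusted p = 0.0344), and its call ended without control rats 3, 4, 5 or 6 or low protein rats 1, 2, 4 or 5 (adjusted p 0.0511 to 0.0736).

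Of 8 genes that supply glutamine and ribose phosphate, 1 fell and none rose, against 3.05% and 3.48% of all genes tested. Gls2, the liver glutaminase, which uses glutamine, fell, with values of 3.67 to 4.25 in low protein and 4.46 to 5.14 in control rats (log2 change -0.79 ± 0.13, limma adjusted p = 0.00462). Pgd, an oxidative enzyme of the pentose phosphate pathway, had a change of similar size and did not pass (-0.85 ± 0.24, adjusted p = 0.0537). The list had 2 genes called lower in 9 of the 26 alternatives, quantile normalization, both normexp settings and the deposited value table among them. Glul, which makes glutamine, was at 0.31 ± 0.18 (adjusted p = 0.355) and the non-oxidative enzyme Tkt at 0.19 ± 0.09 (adjusted p = 0.266).

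Among 7 regulators measured, 2 rose, against 3.48% of all genes tested. Atf4, whose protein induces genes when amino acids are short, had values of 3.73 to 4.29 in low protein and 2.93 to 3.47 in control rats (0.82 ± 0.12, limma adjusted p = 0.00186). Tfe3 was at 0.31 ± 0.07 (limma adjusted p = 0.018), but the mean of its probes was at 0.14 and did not pass (adjusted p = 0.293), nor did it pass without scaling (adjusted p = 0.0656). Myc, which is known to drive purine synthesis genes in growing cells, varied widely and did not pass (0.60 ± 0.53, adjusted p = 0.571). Of 9 proliferation genes none rose and 1 fell, against 3.48% and 3.05% of all genes tested. The gene that fell was Rrm2, a subunit of ribonucleotide reductase (-1.11 ± 0.28, limma adjusted p = 0.037). That call ended without control rats 2, 3, 5 or 6 or low protein rats 1, 2, 5 or 6 (adjusted p 0.0661 to 0.0863), with rat number as a block (adjusted p = 0.0596) and without scaling (adjusted p = 0.0656). With dim probes kept in the fit, Prps1, Uox, Mthfd1, Shmt2, Tfe3 and Rrm2 did not pass (adjusted p 0.0717 to 0.127). Mki67, a marker of dividing cells, was at -0.09 ± 0.19. Of the 9 proliferation genes, 4 had a log2 change above 0 and 2 had an unadjusted p under 0.05, against 21.6% of all genes tested. Beside Rrm2 this was Tyms, which was higher in low protein livers and did not pass (0.37 ± 0.17, limma adjusted p = 0.219).

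**Figure D4:**
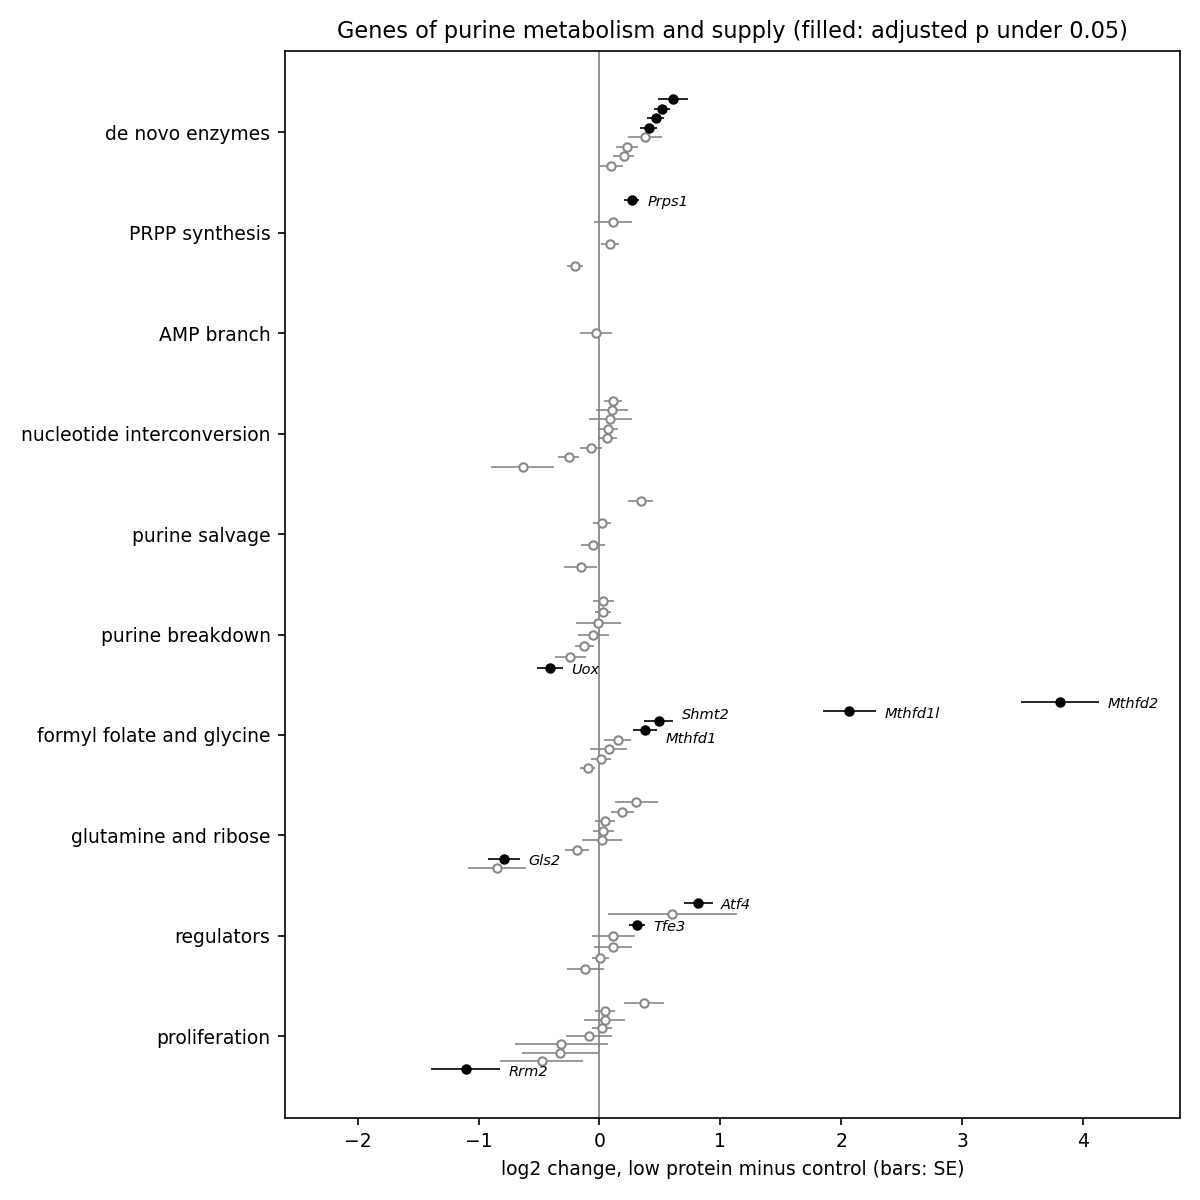
Log2 change, low protein minus control, with SE for each measured gene of the de novo enzymes (top row) and of 9 lists around them, filled and named (members unnamed) where the limma adjusted p was under 0.05. The 4 filled de novo enzymes lie between 0.41 and 0.61, Mthfd2 is at 3.81 and Gls2 at -0.79. Mthfd1l is filled too, but it was not well above background on any control array. It entered the test only through the low protein arrays, so it had to differ.

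Markers of other cell types were measured beside these genes. All 6 macrophage markers had lower means in low protein livers, none passed, and 4 had an unadjusted p under 0.05. Without control rat 6, 3 of them were called lower and all 6 had an unadjusted p under 0.05, and without scaling 0 had. Their summed level was 12.5 to 18.6 in low protein and 12.5 to 26.0 in control rats, in multiples of the 75th percentile of the array. All 6 hepatocyte markers had lower means too, 3 at an unadjusted p under 0.05, and Apoa1 and Cps1 fell. Of the 6, 1 had a higher mean with quantile normalization (with and without normexp), without scaling and in the deposited value table. The summed hepatocyte level was 478 to 636 in low protein and 567 to 668 in control rats. Ptprc, found on all leukocytes, fell (-0.43 ± 0.11, limma adjusted p = 0.0292). That call ended without control rats 1, 2, 3, 4 or 5, without low protein rats 1, 2, 5 or 6, without scaling, in the deposited value table and without the filter on dim probes. None of 5 endothelial, 6 stellate or 4 cholangiocyte markers passed, with 1 of each list at an unadjusted p under 0.05. For comparison with all the marker counts, 21.6% of all genes tested had such a p. Of all genes tested 3.05% fell, and 44.9% had a log2 change above 0. The part of cell composition in the changes of the purine genes was not tested.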

How the data were processed

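Liver RNA of 12 rats was hybridised to 1-colour Agilent arrays. Per the file headers, the authors extracted the scans with Agilent Feature Extraction 12.0.3.1, and the deposited intensity (processed signal) is background-subtracted and spatially detrended; its 75th percentile differs between arrays, so it was not scaled between them. The deposited value table equals the median intensity of the scanner files at 100% of spots. Outlier-marked spots (0.771% to 1.26% per array) were removed, log2 intensity was taken relative to the 75th percentile of the array, and spots of a probe were averaged. Accessions named 21215 of 45598 probes through RefSeq's GRCr8 table; the headers name another build, and only the promoter table's coordinates are printed. Probes well above background (at least 50% of their spots) on 5 or more arrays of a diet were kept, and the brightest per gene was fitted with limma 3.58.1 (R 4.3.3; lmFit, eBayes, two-sided), and p-values adjusted after Benjamini and Hochberg across the 21874 genes (threshold 0.05). Every adjusted p is from that fit unless another test is named. On simulated data with 200 of 21874 genes changed, 46.3% of genes changed 1.5-fold and 83.6% of those changed 2-fold passed. In the data 1429 genes were called, more than the 200 changed in the simulation, so these shares need not hold there. Exact tests used scipy 1.17.1.

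Members, lists and tests were chosen with earlier results of these data known. Named genes were all members, every called gene of each surrounding list (or up to 2 with the smallest p) and the 5 genes most like Ppat. Xdh, Pgd, Glul, Tkt, Myc, Mki67, Tyms and the other PRPP genes were named after their values were seen. So were Apoa1, Cps1, Ptprc, Clec4f and Cd68 among the markers. Alternatives covered background correction, scaling, filter, outlier spots, probes per gene, spread estimate, slide, rat number and each rat left out; the test between slides was added after seeing the data. The labels do not say whether rats shared cages or litters. The study's metabolite and quantitative PCR measurements were not analysed here, and 1 gene of the surrounding lists is not reported here.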

Additional observations from a re-analysis of the deposited data

Results flagged for a closer look

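In 5 of 46 sets of 6 rats examined (8 purine genes and 15 surrounding genes, each diet), 1 rat stood apart from the rest of its diet by a gap large against the range (Dixon's test at 95%, which chance meets in about 1 of 20 sets). Gmps was at 1.87 in low protein rat 6, with the other low protein rats at 1.50 to 1.62, and at 1.04 in control rat 1, with the other control rats at 1.40 to 1.50. With single rats left out, these included, the Gmps change was 0.16 to 0.25 and passed in none of the fits. Adss2 was at 0.50 in control rat 2, with the other control rats at 1.03 to 1.29. Mthfd1 was at 1.60 in control rat 1, with the others at 1.08 to 1.26. Mthfd2 was at -1.58 in control rat 5, with the others at -3.95 to -3.26.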

How the results depend on the processing

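Each of the 8 members kept its direction under all 26 alternatives, and Ppat, Paics, Atic and Impdh2 passed in all but the fits within 1 slide. Within slide 1 the changes and adjusted p were 0.73 and 0.0594 for Ppat, 0.47 and 0.0691 for Paics, 0.44 and 0.0699 for Atic and 0.41 and 0.0826 for Impdh2; within slide 2 they were 0.36 and 0.51, 0.61 and 0.317, 0.52 and 0.396, and 0.41 and 0.511. The count of members called was thus 0 on each slide alone, where 8 and 4 arrays were fitted. Leaving out single rats gave 0.55 to 0.67 for Ppat, 0.29 to 0.50 for Gart (0.50 without control rat 2, when it passed), 0.50 to 0.56 for Paics, 0.15 to 0.23 for Adsl, 0.43 to 0.49 for Atic, 0.37 to 0.43 for Impdh2 and 4 to 5 members called. Impdh2 minus Impdh1 was 0.33 on slide 1 and 0.27 on slide 2 without passing (exact p could not go under 0.333 on slide 2), and 0.24 to 0.35 with single rats left out. Paics minus Ppat was 0.26 on slide 2.

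Genes called over the whole array numbered 761 higher and 668 lower. Higher calls were 1230 with normexp and quantile normalization, 326 without the filter, 82 and 11 within slides 1 and 2 and 442 to 739 without single rats (442 without control rat 3, 494 without low protein rat 2). Lower calls were 212 without scaling, 242 in the deposited values, 292 without the filter, 82 and 1 within the slides and 414 to 704 without single rats (414 without control rat 3). Without scaling the median of all genes shifted by 0.13, and Ppat was at 0.74. In the surrounding lists of 71 genes, not all of them tested, 7 genes rose and 3 fell. Over all genes tested 3.48% rose and 3.05% fell. Mthfd1l is among the 7, although it entered the test only through the low protein arrays. Higher calls in these lists were 3 without the filter and 3 and 1 within the slides. Without single rats they were 4 to 8 (4 without control rats 3 or 5 or low protein rats 1 or 5). Lower calls were 5 with normexp and 75th percentile scaling and 7 with normexp and quantile normalization. They were 1 without scaling, 1 without the filter and 0 within each slide. Without single rats they were 1 to 4 (1 without control rats 2, 3, 5 or 6 or low protein rats 5 or 6). Adss2 turned to 0.10 without scaling, 0.12 in the deposited values, 0.19 on slide 2, 0.0208 without control rat 4 and 0.0157 without control rat 5 (single rats left out, -0.14 to 0.0208). The causes were not tested, beyond fewer samples in the slide fits.

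The labels do not say whether rats of equal number belong together. Same-number deviations correlated at 0.03 to 0.26. The rats numbered 1 matched each other best, but not every rat matched its own number best. With rat number as a replicate block 4 members were called (Ppat adjusted p = 0.0380), and over all genes 679 were higher and 732 lower. Dim spots limit Gart, at 62.5 to 138 intensity units.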
